A study of Mus musculus with 28 samples.

Results

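Of 28 single retinal cells that were picked by shape as Müller glial cells (MGCs) and profiled on 1 array each, 5 cells taken at postnatal day 13 (P13) carried vascular endothelial transcripts, and these 5 cells are compared here between mutant and control mice. They are cells A1 and B1 of the 5 rd1 P13 cells, and cells A3, A4 and A5, which are all 3 of the congenic FVB P13 cells. Both groups came from retinas of FVB mice. The rd1 mice carry a mutation in Pde6b, the β subunit of the rod cGMP phosphodiesterase, and lose their rods early. The congenic control, FVB.129P2-Pde6b+Tyrc-ch/AntJ, is labelled wildtype and carries a normal Pde6b and the chinchilla allele of tyrosinase on the FVB background. Retinas came from several litters, but the animal behind each cell is not named. Each side was therefore treated as 1 sample made of 2 or 3 cells and no test between the sides was run. All values are descriptions of these 5 cells. The other 23 arrays, set beside them below, hold the 3 other rd1 P13 cells and cells of older mice. Those are adult wild-type (WT) cells, cells of mice that lack the rhodopsin gene (Rhod-ko) at 8 and 25 weeks, and rd1 cells at 5 weeks.

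A gene's signal is the MAS5 signal intensity of its highest probe set in that cell, on a linear scale that gives every array a trimmed mean of 500. A gene was called on at 2000 or more and off under 1000. The rule for the comparison took genes that were on in every cell of one side and off in every cell of the other, together with the genes that were on in all 5 cells. The 5 cells themselves were chosen for their endothelial genes, such as Cldn5, Tek and Nos3, so the height of those genes in them is a description and not a result. Differences are given as the mean log2 signal of the 2 rd1 cells minus that of the 3 congenic cells, with every signal under 1000 first raised to 1000, and a difference of 1 is 2-fold. The sides are said not to overlap where every cell of one lay above every cell of the other on these raised signals.

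Retinal endothelial cells line the vessels that grow into the mouse retina after birth. They form the inner blood-retina barrier, in which tight junctions seal the gaps between cells, vesicle traffic across the cell is held down, and dedicated transporters carry glucose, lactate, amino acids and hormones. The vessel tree is divided into arteries, capillaries and veins, whose endothelial cells differ in the genes that they use, and Notch signalling favours the arterial state. In rd1 mice rods die while this vascular bed is still maturing.

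The endothelial label fitted all 5 cells and the MGC label did not. Cldn5, the tight junction claudin of the barrier, had signals of 23455 and 24580 in rd1 cells A1 and B1 and of 23801, 29446 and 27797 in congenic cells A3, A4 and A5. Tek, the angiopoietin receptor, read 22266 and 23543 in rd1 and 13332, 12696 and 27248 in congenic cells. Nos3, the endothelial nitric oxide synthase, read 10353 and 14362 in rd1 and 6769, 4924 and 4642 in congenic cells. On the other 23 arrays Cldn5 reached at most 3095, Tek at most 288 and Nos3 at most 5403. Of 40 endothelial identity genes measured, 35 and 32 were on in the rd1 cells and 33, 29 and 32 in the congenic cells, against 0 to 4 on the other arrays. By contrast Slc1a3, the glutamate transporter of MGCs, had signals between 17.5 and 124 in the 5 cells and was on in all 23 other arrays. Of 22 MGC genes measured, 7 and 6 were on in the rd1 cells and 7, 6 and 3 in the congenic cells, against 15, 15 and 17 in the 3 other rd1 P13 cells. Of 18 pericyte and smooth muscle genes, 1 was on in rd1 B1 (Acta2, a smooth muscle actin, at 3716), 1 in congenic A4 (Vtn at 4129) and 0 in the other 3 cells, and the defining genes Pdgfrb (33.5 to 166) and Rgs5 (29.1 to 98.1) were near background. Of 16 microglia and macrophage genes, 1 was on in congenic A3 (C1qb, a complement subunit, at 3432) and 0 in the other 4 cells, and Ptprc, Aif1 and Cx3cr1 had no signal above 138.

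**Figure D1:**
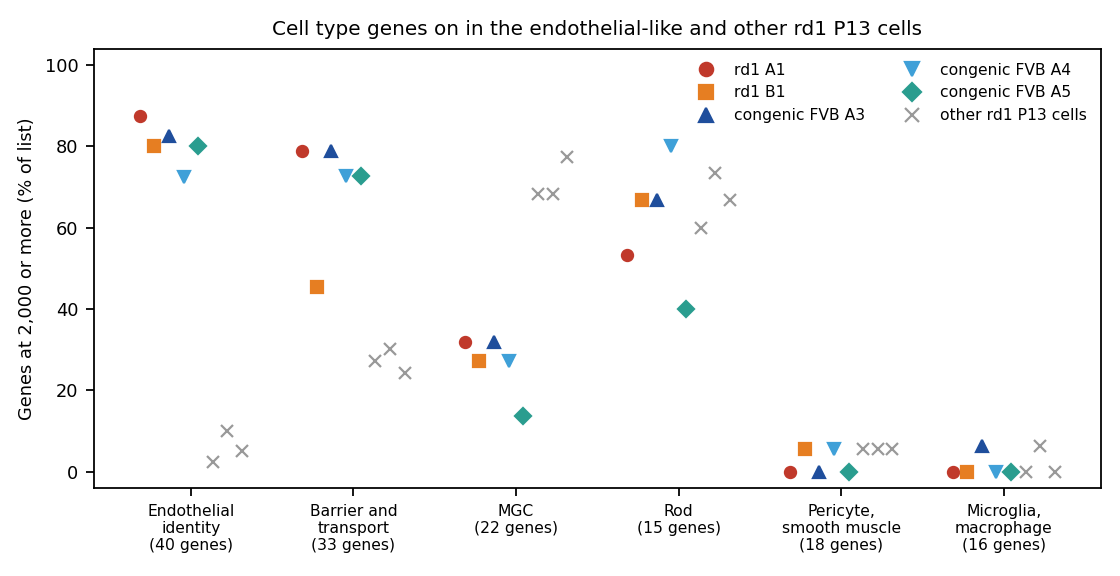
Share of each cell type list that was on (signal of 2000 or more, vertical axis in percent of the genes measured) in the 2 rd1 and 3 congenic FVB endothelial-like cells and in the 3 other rd1 P13 cells, 1 point a cell. The 5 endothelial-like cells hold 29 to 35 of 40 identity genes and the other rd1 P13 cells 1 to 4, while rod genes are on in both kinds of cell and barrier genes are fewer in rd1 cell B1 (15 of 33) than in the other 4 (24 to 26).

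Transcripts of other retinal cells were present in both sides and not evenly. Of 15 rod genes measured, 8 and 10 were on in the rd1 cells and 10, 12 and 6 in the congenic cells, and 3 of the 15 were at least 2-fold higher in congenic cells. Gnat1, the rod transducin, read 18482 and 8347 in rd1 and 20157, 39498 and 22897 in congenic cells. Pde6b itself read 1052 and 707 in rd1 cells and 4412, 14562 and 252 in congenic cells, so the sides overlapped and the gene did not check the labels. Tyr was at or under 96.4 in all 5 cells. Only 10 bipolar cell genes were measured, and the sum of their signals was 18649 to 27975 in rd1 and 1654 to 5038 in congenic cells. That difference came from Pcp2, at 10601 and 14978 in rd1 and 2417, 118 and 36.4 in congenic cells, and from Gng13, at 6294 and 11192 in rd1 and 116, 493 and 2202 in congenic cells. Gfap, the filament of astrocytes and reactive MGCs, was on only in rd1 cell B1 (3684, against 37.1 to 153 in the other 4). The part of this RNA from other cells in the differences below was not tested. The ratio of the 3′ to the 5′ Gapdh probe set, a sign of how long the amplified cDNA was, was 1.97 and 2.11 in rd1 and 2.92, 3.00 and 2.00 in congenic cells. Xist, which is transcribed from the inactive X chromosome of female cells, was on in all 5 cells (6090 to 14858) and the 3 Y-linked genes measured stayed at or under 64.2.

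The likeness of the 5 cells did not separate the sides. Pearson r of log2 signals with a floor of 100 was taken across all 45101 probe sets, which are not independent. It was 0.71 for the rd1 pair and 0.62 to 0.69 for the 3 congenic pairs. For the 6 pairs that cross the sides it was 0.63 to 0.76. The closest pair of all was rd1 A1 with congenic A3. Each cell had 2927 to 2998 genes on, and 883 genes that were on in rd1 A1 (30.0% of them) were off in rd1 B1, whereas 577 of them (19.6%) were off in congenic A3. Against the 3 other rd1 P13 cells, which have the genotype of A1 and B1 but not the endothelial genes, r was 0.50 to 0.61. Among the 5, 893 genes were on throughout, which is 4.91% of all genes. That is 50.8% of the 1758 genes on in both rd1 cells and 70.6% of the 1265 genes on in all 3 congenic cells.

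**Figure D2:**
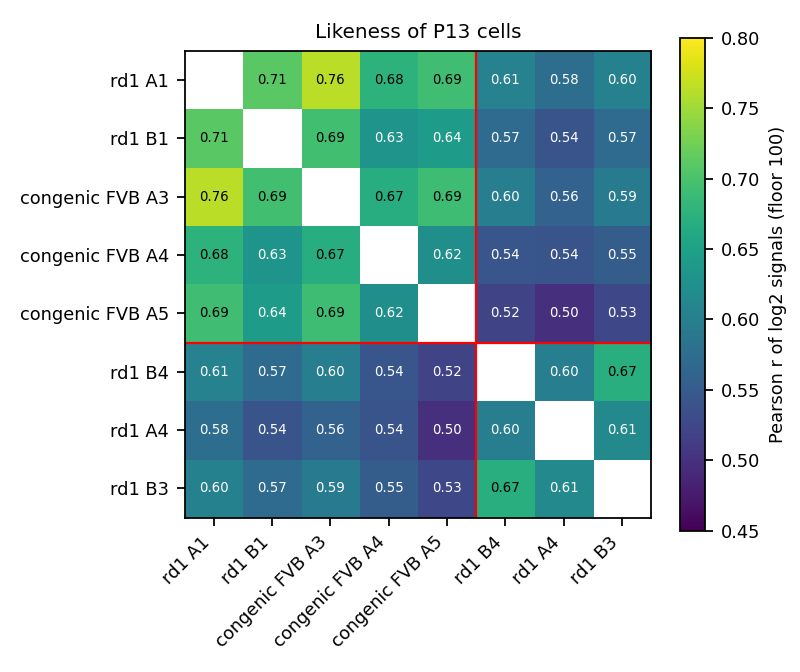
Pearson r across probe sets for each pair of P13 cells, from log2 signals with a floor of 100. The red lines part the 5 endothelial-like cells from the 3 other rd1 P13 cells. The highest value, 0.76, joins rd1 A1 and congenic FVB A3, and the values between endothelial-like and other cells are 0.50 to 0.61.

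The rule found 60 genes that were on in both rd1 cells and off in all 3 congenic cells, 0.33% of the 18194 genes, and 25 genes with the opposite pattern, 0.137%. Leaving out a cell relaxes the rule, so these counts could then only stay or rise. Without congenic A3 they were 167 and 103, and without rd1 B1 they were 255 and 74. Many of the 60 lay close to the bounds, with a median lowest rd1 signal of 2554 and a median highest congenic signal of 586. Just inside the on bound were Ruvbl2 (lowest rd1 signal 2004), Pigb (2021) and Znhit6 (2021), and just outside were Abhd14a (1988), Znrd2 (1975) and Kpna6 (1972). Just inside the off bound were Pcnx3 (highest congenic signal 995), Poglut1 (991) and again Znhit6 (984), and just outside were Deaf1 (1018), Gpr4 (1021) and Ubxn6 (1032). For the opposite pattern Zfp335 (lowest congenic signal 2000.2), Nsmce4a (2036) and Nt5c (2121) were just inside and Mall (1985), Ezh2 (1962) and Pam16 (1918) just outside, while Mbtps1 (highest rd1 signal 996), Tmem250-ps (988) and Pdia5 (987) were just under the off bound and D5Ertd579e (1025), Gm32688 (1038.5) and Pwwp3a (1042) just above it.

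Among the genes on in rd1, the 15 with the widest gap between the sides were Btd, Col6a3, Prxl2a, Aplp1, Alox12, 2810001G20Rik, Kif21b, Aldh2, Pgm1, Myo1e, Slc6a9, Tmem192, Cdc42bpg, Eps8l2 and Nxt1. Btd, the biotinidase that frees the vitamin biotin, read 3251 and 3275 in rd1 and 53.8, 48.1 and 50.9 in congenic cells. Col6a3, a collagen VI chain of the matrix around vessels, read 3647 and 4854 in rd1 and 135, 69.6 and 69.6 in congenic cells. Alox12, the 12-lipoxygenase that oxidises arachidonic acid, read 2580 and 16502 in rd1 and 98.2, 37.0 and 117 in congenic cells. In these 3 genes the sides were far apart, and within rd1 cell B1 was the higher. Aldh2, the mitochondrial aldehyde dehydrogenase, read 5129 and 10899.0 in rd1 and 295, 16.6 and 91.2 in congenic cells. Eps8l2, an actin regulator, read 4720 and 14782 in rd1 and 7.5, 450.0 and 97.1 in congenic cells. Myo1e, a membrane-bound myosin, read 6935 and 5514 in rd1 and 277, 68.7 and 413 in congenic cells. These were 3 genes whose highest congenic signal was still under 500. Slc6a9, a glycine transporter that is also on the amacrine cell list, read 2348 and 2478 in rd1 and 112 to 178 in congenic cells. The other 8 of the 15 had rd1 signals of 2052 to 7357, and their congenic signals did not pass 276.

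Col6a3, Alox12, Fbln2, Hspg2 and A330009N23Rik were the 5 of the 60 that were on in none of the other 22 cells of the series. Fbln2, the matrix glycoprotein fibulin-2, read 3429 and 3933 in rd1 and 91.6, 958 and 6.9 in congenic cells. Hspg2, which encodes perlecan, the heparan sulfate proteoglycan of vessel basement membranes, read 2510 and 4858 in rd1 and 570.0, 107 and 723 in congenic cells. Fbln2 and Hspg2 were the only members of the 60 on a vascular list. The share on in no other cell was 8.33%, beside 6.60% for all genes on in both rd1 cells. For 39 of the 60 (65%) at least 1 of the 3 other rd1 P13 cells also had the gene on, beside 79.1% of all genes on in both rd1 cells. Prxl2a and Aamdc were on in all 3 of those cells, as were 4 others. The wider set on in both rd1 cells holds the 893 genes on in all 5 cells, which the rule leaves out. Of those 893, 85.7% were on in another rd1 P13 cell. The rule itself thus shapes these shares, and nothing is read from how they differ. For 7 of the 60, among them Pgm1 and Gss, no single probe set passed the rule alone, so the call joined different probe sets in different cells.

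**Figure D3:**
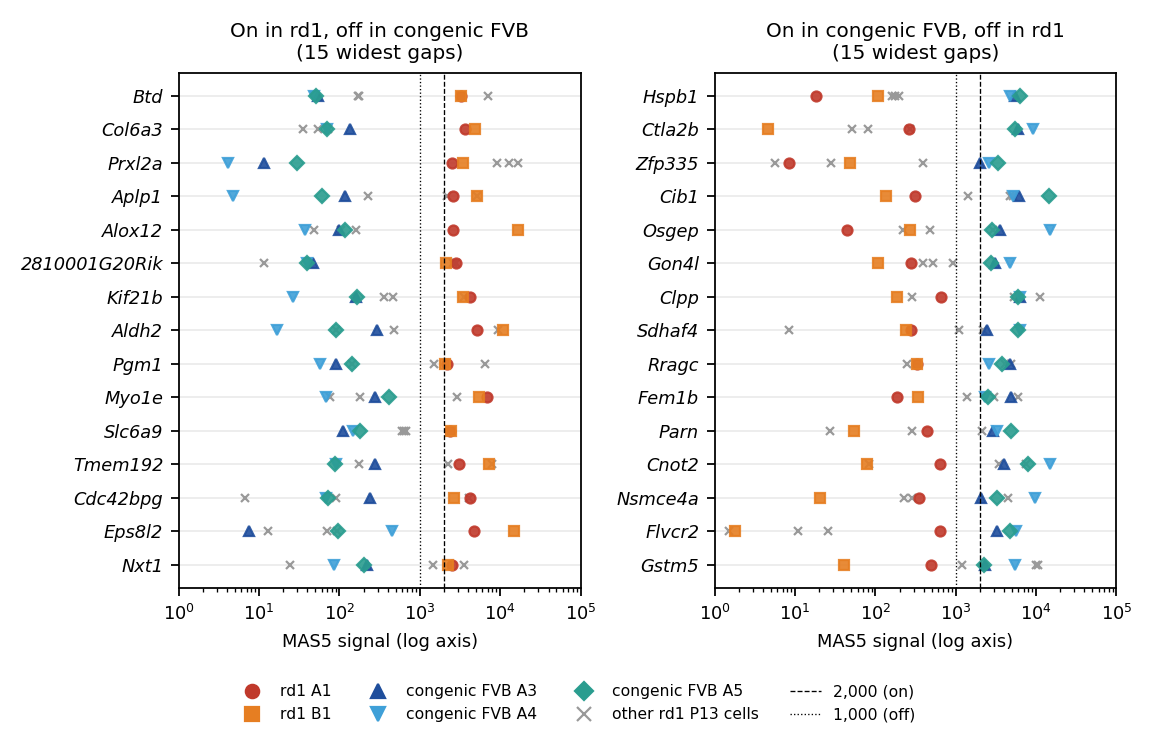
MAS5 signals (log axis) of the 15 genes with the widest gap in each direction of the rule, 1 marker a cell, with the bounds at 2000 (dashed) and 1000 (dotted). The coloured rd1 and congenic FVB markers part at the bounds by construction, and the grey crosses of the 3 other rd1 P13 cells fall on both sides of them for most genes.

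Among the genes on in congenic cells the widest gap was that of Hspb1, a small heat shock protein that binds unfolded proteins and actin. Its signals were 5394, 4709 and 6322 in congenic cells and 18.0 and 107 in rd1 cells, and both of its probe sets passed the rule. No other cell of the series had it on. It was followed by Ctla2b, Zfp335, Cib1, Osgep, Gon4l, Clpp, Sdhaf4, Rragc, Fem1b, Parn, Cnot2, Nsmce4a, Flvcr2 and Gstm5. Ctla2b, a cysteine protease inhibitor, read 5940, 9194 and 5426 in congenic and 260 and 4.6 in rd1 cells. Its near copy Ctla2a read 29909, 19464 and 29146 in congenic cells and 23526 in rd1 A1 but 7.0 in rd1 B1, so the pair did not go together in A1, and the 2 genes may share probe signal. Cib1, a calcium and integrin binding protein, read 6221, 5182 and 14474 in congenic and 312 and 134 in rd1 cells. Flvcr2, a transporter needed in brain vessels, read 3273, 5657 and 4741 in congenic and 632 and 1.8 in rd1 cells. Clpp, a protease of the mitochondrial matrix, read 6373, 6264 and 5972 in congenic and 649 and 184 in rd1 cells. Parn and Cnot2, which both take part in removing poly(A) tails, had congenic signals of 2882 to 14877 and rd1 signals of 54.1 to 632.

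Hspb1, Ctla2b, Zfp335, Flvcr2, Atp10a and Pdia5 were on in no other cell, which is 6 of 25 (24%), beside 6.96% of all genes on in all 3 congenic cells. Atp10a, a phospholipid flippase, read 2198, 4647 and 4479 in congenic and 593 and 79.4 in rd1 cells. Sel1l, which is part of the machinery that clears misfolded proteins from the endoplasmic reticulum, was the other list member beside Hspb1, with 2511, 4219 and 6527 in congenic and 706 and 473 in rd1 cells. Of the 25 genes 16 (64%) were on in at least 1 other rd1 P13 cell, so that those genes were off in A1 and B1 without being off in all rd1 cells, beside 81.9% of all genes on in the congenic cells. Here too the wider set holds the 893 genes that the rule leaves out, so the rule itself shapes both shares. Outside P13, the median adult WT and Rhod-ko cell had 15 to 18 of the 60 genes and 5 to 8 of the 25 on. Those cells had 10.2% to 17.2% of all genes on, but 45.7% of all genes were on in none of the other 22 cells. The rule took genes that were on in 2 or 3 cells, so the share of all genes is no match for them. Both for the 60 and for the 25 the median gene was on in 5 of the 22. It was 10 for all genes on in both rd1 cells and 12 for all genes on in the congenic cells, sets that hold the 893.

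Fewer barrier and transport genes were on in rd1 B1 than in the other 4 cells. Of 33 genes measured, 26 were on in rd1 A1 and 26, 24 and 24 in the congenic cells, but only 15 in rd1 B1. By the difference of means 0 genes were higher in rd1 and 7 higher in congenic cells by at least 2-fold (24.1% of the 29 that reached 1000 in any of the 5 cells). Over all genes 4.26% were higher in rd1 and 3.56% in congenic cells by that much, or 9.95% and 8.31% of the 7790 genes that reached 1000 in any of the 5 cells. Leaving out B1 changed the count of barrier genes higher in congenic cells from 7 to 0, and leaving out A1 raised it to 15.

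Mfsd2a, the lipid transporter that keeps vesicle traffic low at the barrier, read 26311 in rd1 A1, 52.0 in rd1 B1 and 16068, 25029 and 26206 in the congenic cells. Slc16a1, which carries lactate, read 13985 in A1, 23 in B1 and 17867, 26388 and 6072 in the congenic cells. Slc7a5, the large neutral amino acid transporter, read 14213 in A1, 75.7 in B1 and 13409, 12051 and 10942 in the congenic cells. Together with Slc22a8, an organic anion transporter at 6808 in A1 and 65.2 in B1, these 4 genes were off in B1 and on in the other 4 cells, a pattern seen for 119 genes in all. Slco1c1, which carries thyroid hormone, read 26967 in A1, 1426 in B1 and 13866, 30174 and 29510 in the congenic cells. Of the 7, only Slco1a4, a related organic anion carrier, was lower in both rd1 cells than in every congenic cell, at 8876 and 1279 against 14759, 14425 and 21511 (difference -2.30). Plvap, which builds the diaphragms of leaky vessels and is scarce at a closed barrier, went the other way in B1, with 4827 against 889 in A1 and 7.3 to 71.2 in the congenic cells. Emcn (9.6), a surface sialoprotein of veins and capillaries, and Ctla2a (7.0) were also off in B1 and on in the other 4 cells.

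The sealing proteins did not follow the transporters. Cldn5 stayed between 23455 and 29446. Ocln, the junction protein occludin, read 3216 and 4471 in rd1 and 3368, 7113 and 914 in congenic cells, and Tjp1, which ties junctions to actin, read 12194 and 14835 in rd1 and 12131, 6956 and 15202 in congenic cells. Slc2a1, the glucose transporter Glut1, stayed between 30006 and 45515. In these genes the sides overlapped and B1 was not the lowest cell.

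Arterial and venous genes set congenic A3 apart. The lists for it were drawn up after the signals had been seen. Of 17 arterial genes, 14 and 15 were on in rd1 A1 and B1 and 12 and 13 in congenic A4 and A5, but only 4 in congenic A3. Bmx, Efnb2, Gja4, Gkn3, Hey1, Sema3g and Vegfc were off in A3 and on in the other 4 cells, a pattern seen for 45 genes in all. Gja4, a gap junction connexin of arteries, read 19647 and 18772 in rd1, 12.2 in A3 and 17971 and 9921 in A4 and A5. Hey1, a target of Notch that keeps arterial identity, read 4964 and 14529 in rd1, 20.0 in A3 and 7238 and 15469 in A4 and A5. Sema3g, an arterial semaphorin, read 16954 and 23620 in rd1, 20.6 in A3 and 13196 and 23727 in A4 and A5. Those levels placed A3 alone on the low side. On the venous list A3 had 6 of 12 genes on, against 4 and 3 in rd1 and 2 and 0 in A4 and A5. Aplnr, the apelin receptor of veins and sprouts, read 17920 in A3 and at most 126 elsewhere, and Slc38a5, an amino acid carrier, read 14104 in A3, 3038 in rd1 A1 and at most 10.2 in the other 3.

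By means over the sides 9 of the 17 arterial genes were at least 2-fold higher in rd1 and 0 in congenic cells. Without A3 the 9 became 6, and without B1 also 6. Those that did not overlap between the sides were Eln, Gkn3, Gja4 and Jag1, which is 4 of 17, where 2.18% of all genes were as far apart with rd1 higher and 1.6% with congenic higher. On the signals as deposited Gja5 was the fifth, and those shares were 2.34% and 1.82%. Because the list was drawn up after these signals had been seen, nothing is read from its shares beside those of all genes. Gkn3, a secreted protein of arterial endothelium, read 15036 and 25368 in rd1 and 214, 6549 and 5633 in congenic cells. Jag1, a Notch ligand, read 9172 and 15726 in rd1 and 3229, 6426 and 5850 in congenic cells. Eln, the elastin of arterial walls, read 7318 and 30345 in rd1 and 5985, 374 and 2022 in congenic cells. In Gkn3, Jag1 and Eln B1 was the highest of the 5 cells, while in Gja4 rd1 A1 was. Gja5, the connexin of larger arteries, was on in B1 alone (4796, against 10.7 to 115). Of the 12 venous genes 2 (Vwf and Vcam1) were at least 2-fold higher in rd1 and 2 (Aplnr and Nrp2) in congenic cells by means, all with overlap. Vwf, the clotting factor stored by endothelial cells, read 4964 and 27701 in rd1 and 11548, 979 and 61.9 in congenic cells. Vcam1, a leukocyte adhesion receptor, read 2634 and 19846 in rd1 and 81.2, 13661 and 44.4 in congenic cells. Whether the 5 cells came from arteries, capillaries or veins is not labelled, and the kind of vessel and the genotype cannot be told apart in them.

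**Figure D4:**
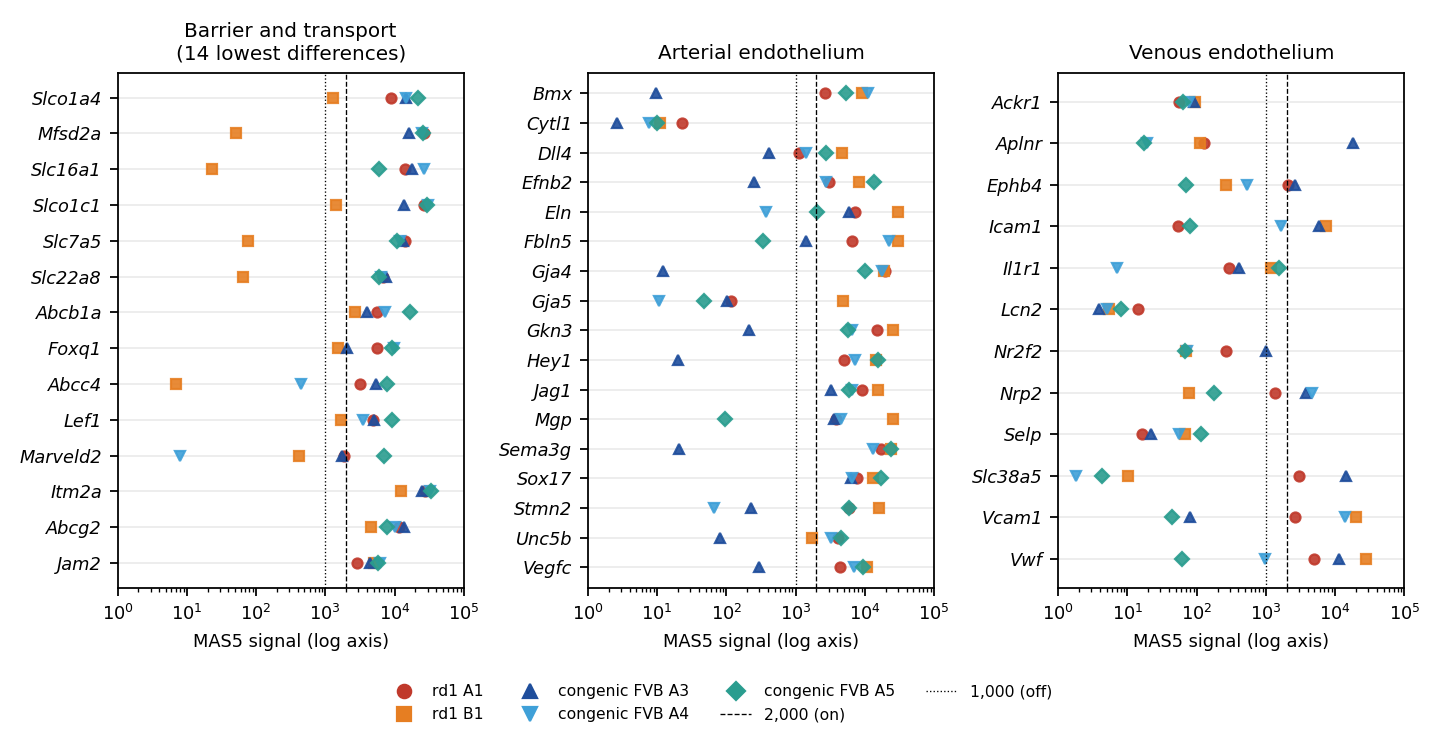
MAS5 signals (log axis) of the 14 barrier genes with the lowest difference, 17 arterial and 12 venous genes in the 5 endothelial-like cells. The barrier genes drawn were picked by that difference. rd1 B1 (orange squares) is low in several of them, as in Mfsd2a at 52.0, but not in Jam2, and congenic FVB A3 (dark blue triangles) is low in several arterial genes, as in Gja4 at 12.2.

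Of the remaining identity genes, 7 of the 40 were at least 2-fold higher in rd1 and 3 in congenic cells, and 25 were on in all 5 cells. Mmrn2, a matrix protein that binds endothelial receptors, read 12798 and 15884 in rd1 and 1768, 3275 and 5673 in congenic cells. Tie1, the partner receptor of Tek, read 8613 and 13578 in rd1 and 5398, 5335 and 4542 in congenic cells, and with Nos3 both were higher in each rd1 cell than in any congenic cell. Rasip1 and She also did not overlap. With rd1 higher, 2.18% of all genes were as far apart. Kdr, the main VEGF receptor, read 2366 and 398 in rd1 and 4667, 1412 and 8161 in congenic cells, which overlapped. Cdh5, the endothelial cadherin, was level at 7779 to 11915.

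In the Notch, BMP and TGF-β list 2 of 30 genes were at least 2-fold higher in rd1, 1 was higher in congenic cells, and these 3 did not overlap. Of its 22 genes that reached the level to which low signals were raised, these are 9.09% and 4.55%. Over all genes that reached that level the shares were 9.95% and 8.31%, so neither list share was above them. Notch4, the endothelial Notch receptor, read 10460 and 16571 in rd1 and 2281, 1592 and 10133 in congenic cells, and Jag1 is given above. Tgfbr1, the type I TGF-β receptor, read 155 and 152 in rd1 and 2804, 1787 and 2834 in congenic cells. Hey1 (difference 0.82) followed A3 as described. Of 32 VEGF, angiopoietin and tip cell genes 2 (Flt4 and Tie1) were higher in rd1 and 3 (Aplnr, Kdr and Nrp2) in congenic cells by 2-fold. Of the 20 that reached the same level these are 10% and 15%. In the activation list Vcam1, Rela and Cx3cl1 were higher in rd1 and Procr in congenic cells, all with overlap, out of 28 genes. Of the 17 that reached the same level these are 17.6% and 5.88%.

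The interferon and antigen presentation genes that differed were higher in rd1. Of 31 genes measured 7 were at least 2-fold higher in rd1 (35% of the 20 that reached 1000) and 0 in congenic cells, and the median difference of those 20 was 0.41, beside -0.06 for all genes that reached 1000. Among all genes that reached 1000 the shares were 9.95% and 8.31%. Without any single cell in turn the 7 stayed between 6 and 8, while the median was 0.20 without congenic A3 and 0.17 with a floor of 2000. Tapbp, the tapasin that loads peptides onto class I molecules, read 10477 and 22175 in rd1 and 5673, 459 and 921 in congenic cells. Gbp2, an interferon-induced GTPase, read 11985 and 9308 in rd1 and 4219, 36.1 and 4472 in congenic cells. Psmb8, a subunit of the immunoproteasome, read 2807 and 4947 in rd1 and 1310, 1563 and 78.5 in congenic cells. In all 3 the lower rd1 cell lay above the highest congenic cell.

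Ifit3, an RNA-sensing effector of interferon, read 1377 and 4971 in rd1 and 29.9, 67.9 and 58.2 in congenic cells. Ifitm2, a membrane protein that hinders virus entry, read 16158 and 24970 in rd1 and 4573, 8567 and 8391 in congenic cells. H2-K1, a class I heavy chain, read 10570 and 20867 in rd1 and 6043, 6887 and 7124 in congenic cells, so these 3 did not overlap either. With the 3 before them they are 6 of 31, where 2.18% of all genes were as far apart with rd1 higher. Oasl2 was the seventh, at 6706 and 2150 in rd1 and 2159, 573 and 41.1 in congenic cells, with B1 just under A3. The class I gene H2-D1 went the other way without reaching 2-fold, at 3584 and 4453 in rd1 and 6761, 10603 and 5847 in congenic cells (difference -0.91). B2m, the common light chain of class I molecules, overlapped at 12652 and 20658 in rd1 and 11917 to 22483 in congenic cells. Ifit1, a neighbour of Ifit3 in the same family, read 1213 and 76.7 in rd1 and 1343, 39.0 and 47.2 in congenic cells. The level of 2000 was reached by 14 and 15 of the genes in rd1 and by 11, 11 and 9 in congenic cells. Among them Ifitm3 was on in all 5 (24343 to 43246) and at or under 58.5 in the 3 other rd1 P13 cells.

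Interferon acts on many of these genes through the interferon-stimulated response element. The letters GAAA, NN and GAAA in a row, where N is any base, were searched on both strands in the RefSeq promoter windows of build GRCm38.p6, from 250 bases before to 50 after each gene's start. They occurred in 3.63% of the genes measured here that had a window, and in 12 of 27 genes of the list with a window (44.4%). Of the 7 genes higher in rd1, 3 held them, Gbp2, Ifit3 and Ifitm2, and the windows of these 3 are shown because their signals separated the sides. Capitals mark each match, on the strand of the gene or as its reverse complement, TTTC, NN and TTTC. The windows are Gbp2 at chr3:142620413-142620712 on the plus strand, Ifit3 at chr19:34583279-34583578 on the plus strand and Ifitm2 at chr7:140955912-140956211 on the minus strand.
Gbp2: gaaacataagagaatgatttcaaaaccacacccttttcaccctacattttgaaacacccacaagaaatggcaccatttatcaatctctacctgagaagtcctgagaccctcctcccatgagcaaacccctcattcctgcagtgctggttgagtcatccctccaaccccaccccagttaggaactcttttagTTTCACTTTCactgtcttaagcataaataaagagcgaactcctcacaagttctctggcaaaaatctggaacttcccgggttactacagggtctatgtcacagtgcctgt
Ifit3: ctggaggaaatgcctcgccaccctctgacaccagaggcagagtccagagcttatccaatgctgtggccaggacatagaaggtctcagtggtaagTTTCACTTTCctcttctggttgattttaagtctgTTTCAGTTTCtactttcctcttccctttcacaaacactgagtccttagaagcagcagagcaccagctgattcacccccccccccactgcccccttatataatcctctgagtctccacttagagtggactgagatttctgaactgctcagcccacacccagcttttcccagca
Ifitm2: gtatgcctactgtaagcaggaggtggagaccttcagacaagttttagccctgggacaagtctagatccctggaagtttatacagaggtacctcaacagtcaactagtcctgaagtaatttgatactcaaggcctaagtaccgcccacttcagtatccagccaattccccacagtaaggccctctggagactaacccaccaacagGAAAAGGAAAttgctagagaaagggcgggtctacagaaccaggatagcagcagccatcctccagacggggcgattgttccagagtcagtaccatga
Genes of the list without a difference held the letters too, such as B2m and Ifit1, so a match did not go with the difference one for one.

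**Figure D5:**
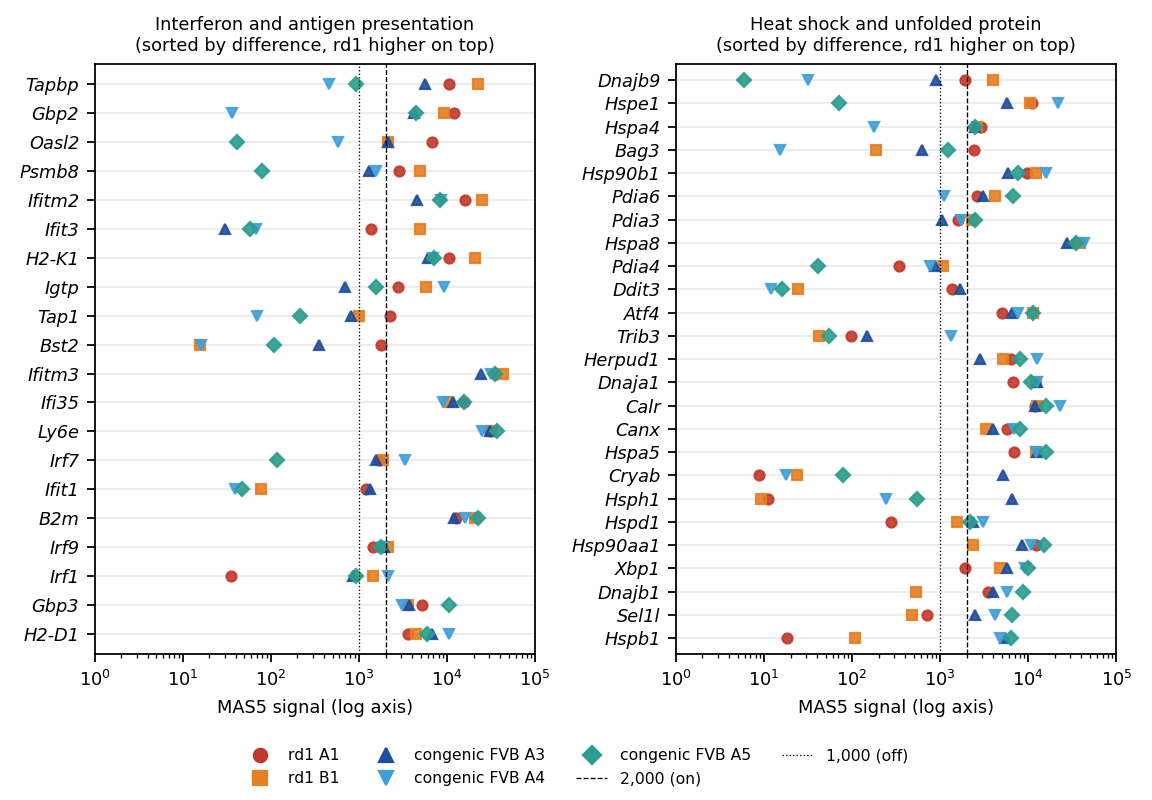
MAS5 signals (log axis) of the interferon list (20 genes) and the heat shock list (25 genes) that reached 1000 in any of the 5 cells, sorted from the highest to the lowest difference, rd1 minus congenic FVB. At the top of the left panel both rd1 markers lie right of the congenic markers for Tapbp, Gbp2, Psmb8, Ifitm2, Ifit3 and H2-K1, and at the foot of the right panel both lie left of them for Xbp1, Dnajb1, Sel1l and Hspb1.

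The heat shock and unfolded protein list leaned to the congenic side, with 6 of 28 genes at least 2-fold higher in congenic cells and 2 in rd1. Beside Hspb1 and Sel1l the 6 were Dnajb1, Xbp1, Hsp90aa1 and Hspd1, and all but Hsp90aa1 did not overlap. Hspb1 and Sel1l are genes of the rule, which itself parts their sides. With congenic higher, 1.6% of all genes were as far apart. Xbp1, a transcription factor of the unfolded protein response, read 1911 and 4787 in rd1 and 5777, 9070 and 9796 in congenic cells. Dnajb1, a partner of Hsp70, read 3463 and 528 in rd1 and 3963, 5698 and 8637 in congenic cells. Cryab and Hsph1 were on in congenic A3 alone of the 5 cells. Leaving out 1 cell at a time gave 4 to 7 genes higher in congenic cells. Hspa8 (27143 to 43242) and Hspa5 (6836 to 15735) were on in all 5.

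Hspd1 and Hspe1, which encode the mitochondrial chaperonin Hsp60 and its lid Hsp10, are transcribed head to head from 1 shared stretch. Hspd1 read 278 and 1563 in rd1 and 2375, 3092 and 2159 in congenic cells, while Hspe1 read 11143 and 10404 in rd1 and 5800, 21802 and 71.6 in congenic cells, so the pair did not go together. The heat shock element, searched on both strands as GAA, NN, TTC, NN and GAA in a row, occurred in 0.609% of the genes measured that had a window and in 3 of 25 genes of the list. The Hspe1 window is shown because it lies between the pair and overlaps a window of Hspd1, at chr1:55087898-55088197 on the plus strand of GRCm38.p6, with 2 overlapping matches in capitals, 1 of them as the reverse complement, TTC, NN, GAA, NN and TTC.
Hspe1: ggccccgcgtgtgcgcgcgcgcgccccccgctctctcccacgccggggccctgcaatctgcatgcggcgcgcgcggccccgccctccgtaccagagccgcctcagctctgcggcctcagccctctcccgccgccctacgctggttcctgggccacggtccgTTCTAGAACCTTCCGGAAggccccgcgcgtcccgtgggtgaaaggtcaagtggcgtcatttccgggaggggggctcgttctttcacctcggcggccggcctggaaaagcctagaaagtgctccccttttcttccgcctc
Hspb1 had no match in its window.

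Of 41 cell cycle genes measured, 0 were at least 2-fold higher in rd1 and 4 in congenic cells. The median difference over the 24 that reached 1000 was -0.40. Of those 24 these are 0% and 16.7%, beside 9.95% and 8.31% of all genes that reached 1000. In rd1 B1, against the other 4 cells, 2 genes of the list were off alone, Ccnd1 and Ccnd3, and 1 was on alone, Cdk6. Without B1 the 4 became 3. H2az1, the histone variant H2A.Z, read 3671 and 3086 in rd1 and 13146, 14884 and 12894 in congenic cells. Mcm6, a subunit of the replication helicase, read 63.5 and 33.2 in rd1 and 913, 8449 and 7090.5 in congenic cells. Ccnd3 read 2788 and 67.7 in rd1 and 4704, 12390.5 and 4447 in congenic cells, and Ccnd1, the other D cyclin that differed, read 3829 and 203 in rd1 and 10412, 2934 and 7337 in congenic cells. H2az1 and Ccnd3 did not overlap, while for Mcm6 congenic A3 was under 1000 like both rd1 cells. The markers of dividing cells Mki67, Top2a and Birc5 had no signal above 258 in any of the 5 cells.

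Basement membrane and matrix genes went both ways, with 6 of 31 at least 2-fold higher in rd1 and 5 in congenic cells. On the rd1 side Ltbp4, which binds latent TGF-β to elastic fibres, read 10620 and 18152 in rd1 and 5288, 2426 and 7395 in congenic cells, and with Fbln2 and Hspg2 it did not overlap. Fbln2 and Hspg2 are genes of the rule, which itself parts their sides. With rd1 higher, 2.18% of all genes were as far apart. Mmp2, a gelatinase, was carried by B1 alone, at 29250 against 4.6 to 76.2. On the congenic side Nid1, which links laminin to collagen IV, read 1734 and 1983 in rd1 and 3793, 4302 and 5200 in congenic cells. Lamc1, the common laminin γ chain, read 1364 and 1831 in rd1 and 3647, 3023 and 4207 in congenic cells. Vwa1, Sparcl1 and Spock2 were lower in B1 but not in A1, such as Vwa1 at 10419 in A1, 108 in B1 and 7858 to 17954 in congenic cells. The collagen IV chains Col4a1 and Col4a2 were on in all 5 cells, between 17579 and 28987.

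Adhesion genes that tie the cell to that matrix followed in part. Of 26 measured, Rdx and Itga9 were higher in rd1 and Itga6, Actn4, Vcl and Itgb1 in congenic cells by 2-fold, and all but Itga9 did not overlap. Of the 23 that reached the level to which low signals were raised, these are 8.7% and 17.4%. Over all genes that reached that level the shares were 9.95% and 8.31%, so the rd1 share was not above its own. Of all genes, 2.18% were as far apart without overlap with rd1 higher and 1.6% with congenic higher. Rdx, which links membrane proteins to actin, read 13297 and 14420 in rd1 and 5105, 2941 and 2814 in congenic cells. Itga6, the α6 chain of a laminin receptor, read 3429 and 82.9 in rd1 and 5339, 6078 and 9334 in congenic cells. Vcl, the focal adhesion protein vinculin, read 3336 and 3762 in rd1 and 7414, 6446 and 13975 in congenic cells. Itga9 was at 5341 in B1 and at or under 232 in the other 4.

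Among vasoactive genes, 3 of 22 were at least 2-fold higher in rd1 and 2 in congenic cells. These are 21.4% and 14.3% of the 14 that reached the level to which low signals were raised. Over all genes that reached that level the shares were 9.95% and 8.31%. Nos3 has been given. Gucy1a1, a subunit of the nitric oxide receptor, read 1532 and 9365 in rd1 and at most 79.5 in congenic cells, and Ace, which makes angiotensin II, was on in B1 alone (7394, against 142 to 393). Ddah2, an enzyme that clears inhibitors of nitric oxide synthase, read 2048 and 256 in rd1 and 2704, 5457 and 6347 in congenic cells. Its relative Ddah1 read 376 and 211 in rd1 and 7097, 67.8 and 5456 in congenic cells, which overlapped.

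The 893 genes on in all 5 cells held 36 cytosolic ribosomal protein genes. Of the 893, 246 (27.5%) stayed within 2-fold over the 5 cells, and 84 varied more than 5-fold. The 10 with the highest median signal that were not ribosomal were Vim, Tsc22d1, Pltp, Slc2a1, Tmsb4x, Hspa8, Akr1a1, Ifitm3, Sparc and Bsg, and each except Bsg stayed within 1.88-fold from its lowest to its highest cell. Pltp, a phospholipid transfer protein, read 40995 and 25730 in rd1 and 35791, 48389 and 48346 in congenic cells, against 1163 to 4014 in the other rd1 P13 cells. Of the 893, 49 were on in no other cell of the series. They held 16 identity genes, among them Tek, Ptprb, Cd93, Eng, Cdh5, Robo4 and Pecam1, and 25 genes on no list, such as Srgn, Lims2, Trim47 and Cthrc1. Srgn, the proteoglycan serglycin, read 24016 in A1 and stayed between 15178 and 31313 in all 5.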

How the data were processed

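Retinas were dissociated by the authors, single cells were picked and lysed, and cDNA was made from polyadenylated RNA, tailed and amplified by PCR for Affymetrix Mouse Genome 430 2.0 arrays. Amplification from 1 cell can lose transcripts, so a low signal does not show that a transcript was absent. The values that the authors deposited are MAS5 signal intensities (linear scale). The MAS5 version was not given in the sources used here. The 2% trimmed mean was checked to be 500 on each array. Of 45101 probe sets, 34958 carry 1 gene symbol in the array annotation and gave 18194 genes, of which the highest probe set per cell was taken. Probe sets with several symbols (932) or none (9211) and genes without a probe set were not analysed here. Of the 5-week rd1 arrays, A5 and A6 were nearly identical (r 0.99) and were averaged to 1 cell when other cells were counted.

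Cells, members and gene lists were chosen with earlier results of these data known, and the arterial and venous lists after the signals had been seen. Named genes were the 15 widest gaps each way (log2, signals floored at 100), the 3 nearest each bound, list members of the rule, the 10 highest shared genes and genes with the 2 highest and 2 lowest differences of a list; other genes were named after their values were seen. Groups were taken from the labels. Alternatives were other bounds, 1 probe set per gene, quantile normalization, equal 90th percentiles, probe sets with several symbols, other floors and each cell left out. Overlap on floored signals was chosen after the signals had been seen. The rule was tested on simulated data. Python 3.11.15, pandas 2.3.3, NumPy 2.4.6 and matplotlib 3.10.9 were used. The number of arrays limits the precision, and 1 array a cell gives no estimate of measurement error.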

Additional observations from a re-analysis of the deposited data

How the results depend on the processing

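No paired analysis was possible because no test was run and cell names such as A4 recur across groups without marking an animal or litter. With the on bound at 1000 there were 182 rd1, 106 congenic and 1351 shared genes, and at 4000 there were 6, 6 and 501. With the off bound at 500 the rule gave 27 and 12 genes, and at 2000 it gave 144 and 84. Equal 90th percentiles multiplied the 5 cells by 0.70 to 0.74 and left 33 rd1 genes, of which 21 were among the 60. Quantile normalization gave 57, of which 33 were among the 60. Leaving out 1 cell, which can only keep or raise the counts, gave 90 to 361 rd1 genes and 74 to 173 congenic genes. Endothelial markers on stayed within 1.5 times at bounds of 500 to 4000.

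Leaving out 1 cell in turn moved list medians (log2) over -0.15 to 0.30 for identity, -1.19 to -0.0099 for barrier, -0.40 to 0.19 for activation, 0.20 to 0.47 for interferon, -0.27 to -0.051 for matrix, -0.42 to 0.0077 for adhesion, -0.11 to 0.34 for vasoactive, -0.37 to -0.021 for immediate early, -0.090 to 0.024 for ribosomal, -0.71 to -0.26 for cell cycle and 0.031 to 0.46 for lipid genes. Where a cell was left out (chosen after seeing the data), genes past 2-fold were 0 to 1 in rd1 and 0 to 15 in congenic cells for barrier, 6 to 14 in rd1 for arterial, 1 to 3 and 0 to 3 for venous, 0 to 1 in congenic cells for interferon, 1 to 2 in rd1 for heat shock and 0 to 1 in rd1 for cell cycle. A floor of 2000 moved the medians of activation to 0.20, interferon to 0.17, adhesion to -0.11, heat shock to -0.36, cell cycle to -0.19 and lipid to -0.14. Equal 90th percentiles gave 0.36 for interferon, -0.37 for heat shock and 0.11 for lipid, quantile normalization -0.024 for ribosomal and 0.044 for lipid, 1 probe set per gene 0.15 and a floor of 500 0.11 for lipid. Of 80 list medians recomputed with all 5 cells 68 kept their sign, and of 80 with a cell left out 58 did. The cause of these moves was not tested.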

Other observations

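Of 63 oxidative phosphorylation genes 44 were on in all 5 cells, 4 were at least 2-fold higher in rd1 and 2 in congenic cells. The 4 and the 2 are 6.56% and 3.28% of the 61 that reached the level to which low signals were raised. Both shares were under those of all genes that reached that level, 9.95% and 8.31%. Ndufa5, Ndufb3, Ndufb8 and Ndufc1, subunits of complex I, were off in congenic A5 and on in the other 4 cells, such as Ndufc1 at 542 in A5 against 6942 to 25232. That pattern was seen for 116 genes in all. Of 42 cytosolic ribosomal protein genes 34 were on in all 5, and only Rpl7a passed 2-fold, at 6245 and 12111 in rd1 and 16943, 19167 and 20517 in congenic cells. Of 27 hypoxia and glycolysis genes 3 (11.1%) were at least 2-fold higher in each direction. This is 14.3% each way of the 21 that reached the level to which low signals were raised. Over all genes that reached that level the shares were 9.95% in rd1 and 8.31% in congenic cells. Ddit4, a stress-induced brake on mTOR signalling, read 9735 and 10171 in rd1 and 4050, 5595 and 2374 in congenic cells. Hif1a, the oxygen-regulated transcription factor, read 3974 and 1559 in rd1 and 10758, 9612 and 9051 in congenic cells, and Pfkp, the platelet phosphofructokinase, read 790 and 2222 in rd1 and 5381, 14882 and 3888 in congenic cells.

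Of 32 immediate early genes Jund alone was at least 2-fold higher in rd1, at 5537 and 9511 against 2185, 130 and 1152, while Dusp1, Dusp6 and Sgk1 were higher in congenic cells. These are 4.55% and 13.6% of the 22 that reached the level to which low signals were raised. Of all genes that reached that level, 9.95% were higher in rd1 and 8.31% in congenic cells by as much. Fos and Egr1 were on in congenic A4 alone (4918 and 5246) and at or under 1141 in the other 4 cells. Among 22 lipid genes Insig1 and Acsl3 were higher in rd1 and Scarb1 in congenic cells. These are 16.7% and 8.33% of the 12 that reached the level to which low signals were raised. Over all genes that reached that level the shares were 9.95% and 8.31%. Of the 50 genes on each side of Pde6b in gene order none met the rule, and of the 100 around Tyr only Aamdc did, 38 places away. Over all genes the rule took 0.33% and 0.137%, so 100 genes are too few to show a departure. On the signals as deposited, 2 of the 100 around Pde6b were at least 2-fold higher in rd1 without overlap and 2 in congenic cells. Around Tyr these counts were 4 and 2, beside 2.34% and 1.82% of all genes.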
